A study of Mus musculus with 39 samples.

Results

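The genes of the 4 prostaglandin E2 receptors, Ptger1, Ptger2, Ptger3 and Ptger4, were followed across tumours of a Braf-mutated mouse melanoma. They were found by symbol through their Ensembl identifiers, and they are 4 of 39179 genes in the count table. All 4 passed the filter on low counts, which kept 15070 genes, although Ptger3 passed it through few libraries and was too low and too uneven to measure. The tumours came from C57BL/6 mice in which cultured tumour cells had been injected, and treatment began on day 7 after injection. Each of the 39 libraries started from 500 ng of tumour RNA and was made with the QuantSeq FWD kit, so that its reads are tags near the 3′ end of polyadenylated transcripts.

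The libraries formed 8 groups. On day 5 of treatment there were 5 libraries each from mice given anti-PD-1 (an antibody against an inhibitory receptor of T cells, 200 µg per dose), EPAT (antagonists that block EP2 and EP4, 30 mpk given bidaily in 200 µl from a 3 mg/mL stock), anti-PD-1 plus EPAT, and vehicle (DMSO, PEG400 and water). On day 2 there were 4 libraries for anti-PD-1 and 5 each for EPAT, anti-PD-1 plus EPAT and vehicle. No 200 µl dose is recorded for mice given anti-PD-1 alone. Comparisons of anti-PD-1 alone with vehicle or with the combination may therefore also differ in receipt of the vehicle. The same holds for the averaged anti-PD-1 and EPAT comparisons, which include them. The extraction text in the labels speaks of tumours taken on day 4, which is neither time point, and the groups follow the time point given for each library. For 3 libraries, anti-PD-1 day 5 replicate 3, EPAT day 5 replicate 5 and EPAT day 2 replicate 5, the first number in the title is otherwise carried by libraries of the other day. Their time point label was kept, and the called differences of receptor genes are also given below without them. Called differences of other genes are given with all libraries only. The labels do not say that the libraries of a group are separate animals, so a p-value here reflects only how far these samples spread, which may in part be technical.

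Prostaglandin E2 is a lipid mediator made from arachidonic acid by cyclooxygenases and prostaglandin E synthases, and it acts near its source through 4 receptors coupled to G proteins. EP1, the product of Ptger1, raises intracellular calcium. EP2 and EP4, the products of Ptger2 and Ptger4, couple to Gs and raise cyclic AMP, and EP4 also engages phosphoinositide 3-kinase. EP3, the product of Ptger3, couples mainly to Gi and lowers cyclic AMP. In tumours, signalling through EP2 and EP4 is known for restraining T cells, NK cells and dendritic cells and for shaping macrophages and neutrophils.

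The genes lie on separate chromosomes of GRCm38 in the GENCODE M21 annotation. Ptger4 is at chr15:5206661-5244187 on the reverse strand and Ptger2 at chr14:44988195-45003820 on the forward strand. Ptger1 is at chr8:83666678-83672753 and Ptger3 at chr3:157566892-157645888, both on the forward strand. The promoters of the genes for both receptors that EPAT blocks are shown because they are the direct targets of the treatment. Each sequence runs from 250 bases before to 50 bases after the RefSeq start (GRCm38.p6), at chr14:44987861-44988160 for Ptger2 and chr15:5244138-5244437 for Ptger4, with CCAAT boxes and GC boxes on either strand in capitals. The whole Ptger2 window lies before the GENCODE start of that gene, whereas the Ptger4 window includes the GENCODE start.
Ptger2: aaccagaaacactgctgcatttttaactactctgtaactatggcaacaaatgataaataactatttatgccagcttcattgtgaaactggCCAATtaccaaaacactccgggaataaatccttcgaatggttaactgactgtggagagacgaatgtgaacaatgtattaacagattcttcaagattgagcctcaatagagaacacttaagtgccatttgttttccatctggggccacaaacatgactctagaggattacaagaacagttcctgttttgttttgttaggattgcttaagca
Ptger4: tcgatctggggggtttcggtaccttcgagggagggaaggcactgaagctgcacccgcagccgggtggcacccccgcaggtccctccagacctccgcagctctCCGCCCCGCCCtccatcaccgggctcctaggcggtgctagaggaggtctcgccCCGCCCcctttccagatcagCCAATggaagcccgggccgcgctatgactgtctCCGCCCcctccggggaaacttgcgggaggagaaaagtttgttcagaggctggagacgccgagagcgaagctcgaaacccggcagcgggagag

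The Ptger4 window was GC-rich, at 67.0% G and C, against 37.7% for Ptger2 and a median of 52.7% over all RefSeq promoters. It held 4 GC boxes (GGGCGG, both strands) and 1 CCAAT box, whereas the Ptger2 window held 1 CCAAT box and 0 GC boxes. GC boxes occurred in 35.7% and CCAAT boxes in 37.4% of the 32851 promoter windows of this length. The Ptger3 window, not printed, had 64.0% G and C and 3 GC boxes. None of these 3 windows held the letters of the cyclic AMP element core TGACG, of the full element TGACGTCA that contains it, or of the TATA box TATAAA, which occurred in 20.8%, 1.79% and 13.6% of all windows.

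Total counts per library ranged from 8385741 to 15558113. Levels are given as CPM, the count scaled to the library's total after TMM normalization, and since 3′ tags carry no gene length term, levels of different genes can be set side by side within a library. The labelled tumour type was checked against melanocyte genes. Mitf had counts in every library, but Sox10 was at 0 in 11 of 39 libraries, and Pmel, Dct, Tyr, Tyrp1 and Mlana never exceeded 9, 2, 1, 0 and 3 counts. Libraries with lung epithelium transcripts (at least 100 summed counts of Sftpc, Sftpa1, Sftpb, Scgb1a1 and Sftpd) numbered 23, made up of 9 of 20 day 5 libraries and 14 of 19 day 2 libraries. They followed the S number that ends each title: all 21 libraries numbered up to 21 had them, and 2 of the 18 above did. The labels do not say what this number marks, so lung tissue and a batch of libraries cannot be told apart.

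Ptger4 was the most abundant of the 4 genes in 39 of 39 libraries. It supplied 79.0% of all 12123 receptor counts, with a range over libraries of 60.7% to 92.2%. Ptger1 supplied 10.98%, Ptger2 6.81% and Ptger3 3.19%. Among the lower genes, Ptger1 exceeded Ptger2 in 29 libraries and was below it in 9, with 1 tie (exact two-sided sign test over libraries, adjusted p = 0.00166 over 6 pairs). Ptger2 exceeded Ptger3 in 33 libraries and was below it in 5. By mean CPM, Ptger4 stood at percentile 52.9 of the genes tested, Ptger1 at 20.9, Ptger2 at 15.1 and Ptger3 at 7.56.

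A library held on average 246 counts of Ptger4, 34.1 of Ptger1, 21.2 of Ptger2 and 9.92 of Ptger3. The gene-wise biological coefficient of variation in edgeR was 33.98% for Ptger4, 33.4% for Ptger1, 44.6% for Ptger2 and 88.6% for Ptger3, against 32.3% common to all genes. The filter's level of 0.82 CPM was reached by Ptger4 and Ptger1 in 39 libraries, by Ptger2 in 32 and by Ptger3 in 9. For Ptger3 the values are therefore described below by library, and fold changes are given only for the comparisons averaged over groups; its other tests rest on the same low counts.

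**Figure D1:**
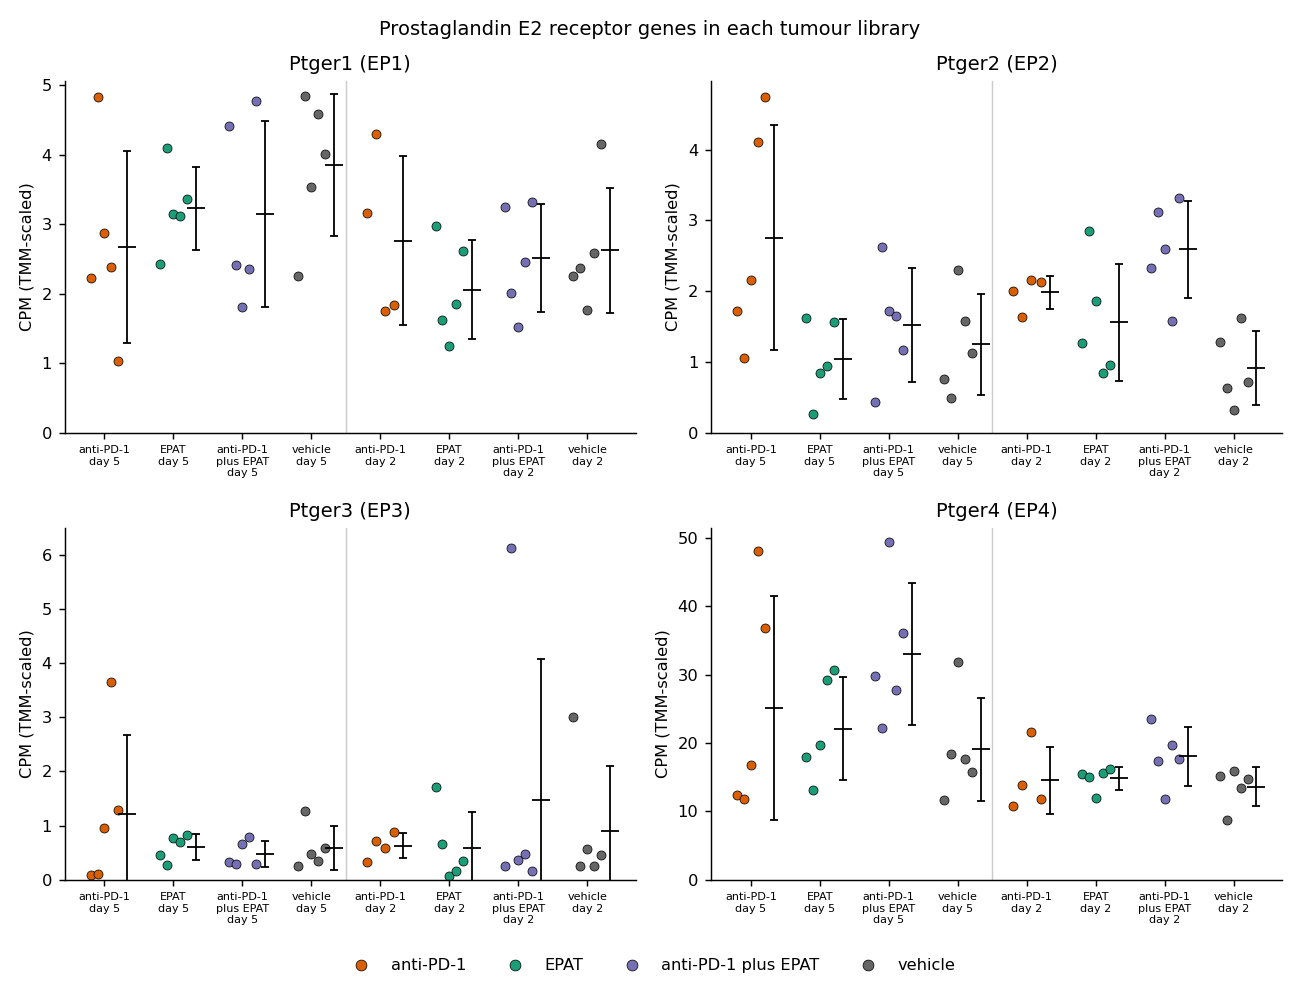
Level of each receptor gene in CPM (linear axes starting at 0, a separate scale per panel) in every library of the 8 groups, with the group mean and SD beside the points; SD bars that reach below 0 end at the axis. Ptger4 lies at 8.74 to 49.4 CPM and is higher and more scattered on day 5, while no library of the other genes exceeds 6.14 CPM.

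Ptger4, the gene of the EP4 receptor that EPAT blocks, was higher in day 5 than in day 2 tumours, by 1.60-fold averaged over the 4 treatments. On day 5 its levels were 12.3, 11.9, 16.7, 48.1 and 36.8 CPM in anti-PD-1 tumours and 17.9, 13.1, 19.7, 29.2 and 30.7 CPM in EPAT tumours. They were 29.8, 22.2, 49.4, 27.7 and 36.1 CPM in anti-PD-1 plus EPAT tumours and 11.6, 18.3, 31.8, 17.7 and 15.8 CPM in vehicle tumours. The combination was the only day 5 group in which every library exceeded 20 CPM, and the ranges of all day 5 groups overlapped. On day 2 Ptger4 was at 10.8, 13.8, 21.6 and 11.8 CPM in anti-PD-1 tumours and 15.5, 15.0, 11.9, 15.5 and 16.2 CPM in EPAT tumours. It was at 23.5, 17.4, 11.8, 19.7 and 17.7 CPM in anti-PD-1 plus EPAT tumours and 15.2, 8.74, 15.8, 13.4 and 14.8 CPM in vehicle tumours. The day 2 values were low and close together, with overlapping ranges in all 4 groups.

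Over all treatments Ptger4 averaged 24.8 ± 11.5 CPM on day 5 (SD, n = 20) and 15.3 ± 3.68 CPM on day 2 (n = 19). The log2 fold change was 0.68 ± 0.16 (SE), with an adjusted p of 0.0202 in edgeR's quasi-likelihood test (Benjamini-Hochberg over 15070 genes). Of all genes, 2.2% were called in this comparison, and Ptger4 was the only 1 of the 4 receptor genes called. Its level exceeded the day 2 mean in 16 of 20 day 5 libraries and the highest day 2 value in 9 of 20. Within treatments, the day 5 to day 2 log2 fold change was 0.79 ± 0.34 for anti-PD-1, 0.58 ± 0.31 for EPAT, 0.88 ± 0.31 for the combination and 0.48 ± 0.31 for vehicle. All 4 were positive, but none was called on its own (smallest adjusted p 0.310).

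Some markers of other tissue were also called between days. Day 5 tumours had higher log2 levels in 10 of 10 fibroblast markers, of which 4 were called, and in 8 of 8 endothelial markers, of which 2 were called. The summed fibroblast markers were at 4394 to 36081 CPM (median 11595) on day 5 and 4408 to 20475 CPM (median 6738) on day 2. The summed endothelial markers were at 153 to 518 CPM (median 268) on day 5 and 150 to 280 CPM (median 215) on day 2. Of 10 macrophage markers 8 were higher and 1 was called, with sums of 1782 to 12865 CPM (median 3474) on day 5 and 2180 to 4560 CPM (median 2991) on day 2. Within the macrophage sum Apoe had the highest median level (1005 CPM, next C1qa at 499 CPM). Its highest count was 85092, against 15586 for C1qb, so the highest macrophage sums may weigh Apoe most. Every gene of these 3 lists had counts in all 39 libraries. In a bulk sample, a change in the number of cells of a type and a change in RNA per cell cannot be told apart, and the part of these markers in the Ptger4 difference was not tested.

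Of other lists with a call, 7 of 7 mast cell markers were higher on day 5 and 1 was called, and 7 of 7 adipocyte markers were lower and 1 was called. The summed mast cell markers were at 59.5 to 420 CPM (median 129) on day 5 and 42.7 to 200 CPM (median 95.8) on day 2, and the summed adipocyte markers at 13.2 to 256 CPM (median 36.3) on day 5 and 13.4 to 1536 CPM (median 48.3) on day 2. Dendritic cell markers were higher in 6 of 8 genes with 1 called. Skeletal muscle markers were higher on day 5 in 10 of 10 genes with 0 called, at 13.7 to 22598 CPM (median 1263) on day 5 and 9.82 to 4740 CPM (median 788) on day 2. Lung epithelium markers were lower in 5 of 5 genes with 0 called, at 0.25 to 178 CPM (median 1.07) on day 5 and 0.38 to 148 CPM (median 66.6) on day 2. Among libraries with lung transcripts Ptger4 averaged 20.9 ± 11.5 CPM on day 5 (n = 9) and 15.4 ± 4.17 CPM on day 2 (n = 14). Among libraries without them it averaged 28.1 ± 10.9 CPM on day 5 (n = 11) and 15.1 ± 2.08 CPM on day 2 (n = 5). The difference kept its direction but was no longer called with the muscle score as a covariate (log2 fold change 0.62, adjusted p 0.0932) with a term for lung transcripts (0.61, adjusted p 0.0764) or with limma-trend on the deposited log2 CPM (0.59, adjusted p 0.051). Without the 3 libraries whose titles carry a number of the other day it was 0.68 (adjusted p 0.0343, an alternative chosen after the data were seen). No single library decided it, as the adjusted p stayed between 0.00684 and 0.0475 whichever library was left out.

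Ptger4 also had its highest group mean under the combination on day 5, at 33.1 ± 10.4 CPM, against 19.1 ± 7.58 CPM in day 5 vehicle tumours (SD, n = 5 each). This log2 difference of 0.80 ± 0.31 was not called (edgeR adjusted p 0.227), and 0.0265% of all genes were called in that comparison. All 5 combination libraries exceeded the vehicle mean, but 1 vehicle library, at 31.8 CPM, lay above 3 of them. Set against EPAT alone on day 5 the combination was at a log2 difference of 0.58 ± 0.31 (adjusted p 0.428, 0% of genes called). Set against anti-PD-1 alone it was at 0.39 ± 0.31 (adjusted p 0.867, 0.0199% of genes called).

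Ptger2, the gene of the EP2 receptor, was higher in tumours given anti-PD-1 than in those without it, by 1.83-fold averaged over both days and both EPAT states. With anti-PD-1 alone it was at 1.71, 1.05, 2.16, 4.10 and 4.75 CPM on day 5, against 0.753, 0.485, 2.30, 1.57 and 1.12 CPM in vehicle tumours. With anti-PD-1 plus EPAT on day 5 it was at 0.430, 2.63, 1.72, 1.65 and 1.17 CPM, against 1.62, 0.264, 0.836, 0.936 and 1.56 CPM with EPAT alone. The 2 highest values of all 39 libraries were anti-PD-1 day 5 replicates 5 and 4, and each day 5 pair of groups overlapped. With anti-PD-1 alone on day 2 it was at 2.00, 1.64, 2.16 and 2.12 CPM, against 1.28, 0.624, 0.322, 1.62 and 0.721 CPM in vehicle tumours. With anti-PD-1 plus EPAT on day 2 it was at 2.33, 3.12, 2.60, 1.58 and 3.32 CPM, against 1.26, 2.86, 1.86, 0.846 and 0.957 CPM with EPAT alone. On day 2 the lowest anti-PD-1 library was at 1.64 CPM (16 counts) and the highest vehicle library at 1.62 CPM (25 counts). In that comparison 0% of all genes were called. The combination on day 2 overlapped with EPAT alone and, at its lowest library, with vehicle.

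Over all libraries Ptger2 averaged 2.22 ± 1.04 CPM with anti-PD-1 (SD, n = 19) and 1.19 ± 0.66 CPM without it (n = 20). It had fewer than 10 counts in 1 of 19 libraries with the antibody and in 6 of 20 without it. Of the latter, 3 were day 2 vehicle libraries. The log2 fold change with anti-PD-1 was 0.87 ± 0.24 (SE; edgeR adjusted p 0.0419). In this comparison 2.56% of all genes were called, and Ptger2 was the only receptor gene among them. Ptger2 exceeded the mean of the libraries without the antibody in 16 of 19 libraries with it. The 4 contrasts behind the average were 1.14 ± 0.46 and 0.54 ± 0.47 on day 5, without and with EPAT, and 1.09 ± 0.50 and 0.72 ± 0.45 on day 2. Those without EPAT, 1.14 and 1.09, set anti-PD-1 alone against vehicle. They, and so the average, may also differ in receipt of the vehicle. None of the 4 contrasts was called alone (adjusted p 0.633 to 0.768).

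The Ptger2 call lay close to the threshold. The fold change kept its sign, at 0.80 to 0.96, in every fit with 1 library left out, but the adjusted p rose to between 0.0513 and 0.0753 for 21 of the 39 libraries. These were anti-PD-1 day 5 replicates 4 and 5, EPAT day 5 replicates 2, 3 and 4, combination day 5 replicates 2 and 3, vehicle day 5 replicates 1, 2, 4 and 5, anti-PD-1 day 2 replicates 1, 4 and 5, EPAT day 2 replicates 3, 4 and 5, combination day 2 replicate 5 and vehicle day 2 replicates 2, 3 and 5. Without a filter on low counts the adjusted p was 0.0642, and without vehicle day 2 replicates 1 and 2, which carry B cell, adipocyte or keratinocyte genes, it was 0.0565. With the replicate number as a block, which the labels do not tie to a shared animal or day, it was 0.0548. With DESeq2 it was 0.00941, and without the 3 libraries whose titles carry a number of the other day 0.037.

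Between 1 and 2 genes of each of 6 immune cell lists were called in the same comparison. Macrophage markers were higher with anti-PD-1 in 10 of 10 genes, of which 2 were called, at 2144 to 12865 CPM (median 3938) with the antibody and 1782 to 4993 CPM (median 2956) without it. Inflammatory monocyte markers were higher in 7 of 8 genes, of which 2 were called, at 1044 to 2050 CPM (median 1205) with it and 875 to 1480 CPM (median 1158) without it. Dendritic cell markers were higher in 8 of 8 genes, of which 1 was called, at 66.1 to 239 CPM (median 125) with it and 76.6 to 198 CPM (median 109) without it. T cell markers were higher in 11 of 11 genes with 1 called, neutrophil markers in 7 of 8 with 2 called and NK cell markers in 8 of 9 with 1 called. Their sums were 15.2 to 614 CPM (median 168) with anti-PD-1 and 55.6 to 270 CPM (median 123) without it for T cells, 86.3 to 1197 CPM (median 251) with it and 44.5 to 623 CPM (median 180) without it for neutrophils, and 162 to 493 CPM (median 377) with it and 199 to 605 CPM (median 410) without it for NK cells. Among the defining genes Clec9a was at 0 in 2 libraries, Cd209a in 1, Ly6g in all 39 and Trac in 20, and the other genes of these 6 lists had counts in every library. By median level the NK cell sum rested largely on Klra4 (318 CPM, next Klrk1 at 24.3 CPM). The inflammatory monocyte sum rested largely on Fn1 and Vcan (522 and 286 CPM, next Plac8 at 105 CPM). These 2 sums therefore say little about the other genes of their lists. The part of these markers in the Ptger2 difference was not tested. Among libraries with lung transcripts Ptger2 was at 2.24 ± 0.86 CPM with anti-PD-1 (n = 11) and 1.25 ± 0.68 CPM without it (n = 12), and among those without lung transcripts at 2.21 ± 1.32 CPM (n = 8) and 1.10 ± 0.67 CPM (n = 8).

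Ptger1, the gene of the calcium-linked EP1 receptor, was not called in any comparison. On day 5 it was at 2.23, 4.83, 2.88, 2.39 and 1.04 CPM in anti-PD-1 tumours and 2.43, 4.09, 3.15, 3.12 and 3.37 CPM in EPAT tumours. It was at 4.41, 2.41, 1.81, 2.36 and 4.77 CPM in anti-PD-1 plus EPAT tumours and 2.26, 4.85, 3.54, 4.58 and 4.01 CPM in vehicle tumours. Every one of these groups overlapped with the others, and vehicle had the highest mean. On day 2 it was at 3.17, 4.30, 1.75 and 1.83 CPM in anti-PD-1 tumours and 2.98, 1.62, 1.24, 1.85 and 2.61 CPM in EPAT tumours. It was at 3.24, 2.02, 1.52, 2.45 and 3.32 CPM in anti-PD-1 plus EPAT tumours and 2.26, 2.37, 1.77, 2.59 and 4.15 CPM in vehicle tumours. These groups overlapped as well. Ptger1 averaged 3.23 ± 1.12 CPM on day 5 (SD, n = 20) and 2.48 ± 0.87 CPM on day 2 (n = 19), a log2 difference of 0.37 ± 0.17 that was not called (edgeR adjusted p 0.263).

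Neighbouring annotation bears on what the counts hold. No source used here gives the strand setting of the counting, and without strand the reads of a gene and of any gene that overlaps it on the opposite strand cannot be told apart. This bears on the level, and so on the order, of any of the 4 genes with such an overlap. Ptger2 shares 4.74% of its exonic bases with the antisense gene Gm17173 and 2.77% with Gm49364. Ptger4 shares 15.3% with the pseudogene Gm15937 and 1.23% with Ttc33, all on the opposite strand. Gm17173 covers the whole of Ptger2. Ttc33 (chr15:5185525-5218336) spans the 3′ end of Ptger4, and Gm15937 lies at chr15:5208913-5210147. As the reads are 3′ tags, these percents do not give the share of counts concerned, which was not tested.

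Ptger3, the gene of the Gi-coupled EP3 receptor, was near the limit of measurement in most libraries and high in a few. On day 5 it was at 0.0856, 0.105, 0.959, 3.66 and 1.29 CPM in anti-PD-1 tumours, 0.450, 0.264, 0.771, 0.702 and 0.822 CPM in EPAT tumours, 0.323, 0.284, 0.657, 0.787 and 0.292 CPM in anti-PD-1 plus EPAT tumours and 0.251, 1.26, 0.479, 0.342 and 0.590 CPM in vehicle tumours. On day 2 it was at 0.334, 0.717, 0.583 and 0.878 CPM in anti-PD-1 tumours, 1.71, 0.649, 0.0690, 0.154 and 0.348 CPM in EPAT tumours, 0.250, 6.14, 0.361, 0.475 and 0.166 CPM in anti-PD-1 plus EPAT tumours and 3.01, 0.250, 0.563, 0.259 and 0.451 CPM in vehicle tumours. The 3 highest libraries belonged to 3 different groups, and the ranges of neighbouring groups in the order of means all overlapped. In 11 libraries it had 3 counts or fewer, and 26 libraries had fewer than 10. Its highest count was 67 and its median 5.

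No averaged comparison called Ptger3. Its log2 difference was 0.37 ± 0.45 for anti-PD-1 (edgeR adjusted p 0.643), −0.19 ± 0.44 for EPAT (adjusted p 0.963) and −0.30 ± 0.45 for day 5 against day 2 (adjusted p 0.781). The 95% intervals of these differences spanned −0.54 to 1.29, −1.09 to 0.72 and −1.21 to 0.61, so a 2-fold fall with EPAT or with time and a 2-fold rise with anti-PD-1 all lay within the intervals. Single libraries set the sign. Without combination day 2 replicate 2 the anti-PD-1 difference was −0.16 and the difference between days was 0.24, and without vehicle day 2 replicate 1 the EPAT difference was 0.12 and that between days 0.01. Without anti-PD-1 day 5 replicate 4 the EPAT difference was 0.06.

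EPAT blocks the EP2 and EP4 proteins, and the comparison of all tumours with and without it asks whether their transcripts moved. Ptger4 averaged 22.003 ± 9.44 CPM with EPAT (SD, n = 20) and 18.3 ± 10.0 CPM without it (n = 19), a log2 difference of 0.26 ± 0.16 (95% interval −0.06 to 0.58; edgeR adjusted p 0.861). Ptger2 averaged 1.68 ± 0.88 CPM with EPAT and 1.71 ± 1.14 CPM without it, a difference of 0.01 ± 0.23 (interval −0.45 to 0.48; adjusted p 0.995). Ptger1 averaged 2.74 ± 0.97 CPM with EPAT and 2.99 ± 1.17 CPM without it, a difference of −0.13 ± 0.17 (interval −0.48 to 0.22; adjusted p 0.929). In this comparison 0% of genes were called by edgeR, with 850 at an unadjusted p under 0.05, 4 called by DESeq2 and 0 by limma-trend.

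In the pairwise comparisons on a single day, edgeR called 0 of the 4 genes, and DESeq2 and limma-trend called 0 of Ptger1, Ptger2 and Ptger4. On day 2 edgeR called 0% of genes for anti-PD-1, for EPAT and for the combination against vehicle, and 0% for the combination against either single treatment. On day 5 it called 0% for anti-PD-1 and for EPAT against vehicle. At an unadjusted p under 0.05 these comparisons held between 256 genes (EPAT against vehicle on day 5) and 1541 genes (combination against vehicle on day 2), and the combination against EPAT on day 5 held 1917. DESeq2 called 0 to 81 genes and limma-trend 0 or 1 in these comparisons. The largest pairwise difference of a receptor gene was that of Ptger2 under the combination on day 2, at 2.59 ± 0.69 CPM, against 0.91 ± 0.52 CPM in vehicle tumours (SD, n = 5 each), a log2 difference of 1.47 ± 0.47 with an adjusted p of 0.228. Anti-PD-1 alone gave Ptger2 differences of 1.14 ± 0.46 on day 5 and 1.09 ± 0.50 on day 2 against vehicle. Within a day, the comparisons against vehicle share the vehicle libraries.

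Whether a treatment effect differed between days was also tested. None of the 4 genes was called for the anti-PD-1, EPAT or combination effect on day 5 minus that on day 2, where edgeR called 0% of all genes (503, 786 and 528 at an unadjusted p under 0.05). For Ptger2 the combination effect was 0.30 ± 0.47 on day 5 and 1.47 ± 0.47 on day 2, a difference of −1.16 ± 0.66 with an adjusted p of 0.999. The test of any difference among the 8 groups called 0.564% of genes and 0 of the receptor genes. Its adjusted p was 0.117 for Ptger4, 0.199 for Ptger2, 0.606 for Ptger1 and 0.755 for Ptger3.

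**Figure D2:**
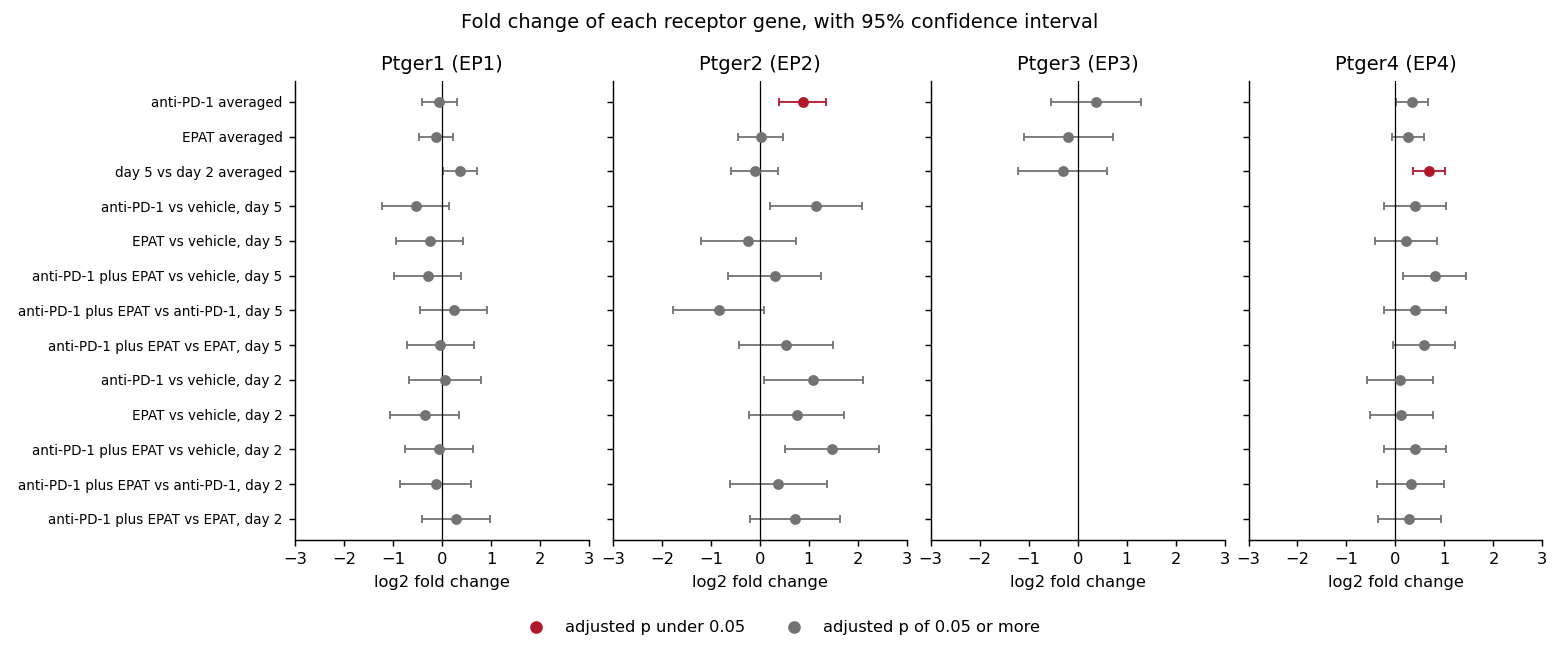
Log2 fold change of each receptor gene with its 95% confidence interval in the 3 averaged and 10 pairwise comparisons, drawn for Ptger3 only where averaged. Red marks an adjusted p under 0.05, reached by Ptger2 for anti-PD-1 (0.87) and by Ptger4 for day 5 against day 2 (0.68).

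Ordered by group mean, Ptger4 ran through all 4 day 5 groups before the 4 day 2 groups, with the combination first on either day and vehicle last. Of its 7 neighbouring pairs, 6 differed by less than the smaller of both SDs, the exception being the combination and EPAT on day 2 (18.02 and 14.83 CPM). Ptger2 ran from anti-PD-1 on day 5 (2.75 ± 1.59 CPM) through the combination (2.59 ± 0.69 CPM) and anti-PD-1 (1.98 ± 0.24 CPM) on day 2 down to vehicle on day 2, and 5 of its 7 neighbouring pairs differed by less than the smaller SD. For Ptger1 and Ptger3, 6 of 7 pairs did. The ranges of neighbours overlapped in 7 of 7 pairs for every gene.

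The receptor genes were also set against cell markers within groups. After subtraction of group means, each gene was correlated over 39 libraries with the mean log2 level of 15 marker lists, 60 relations in all, and two-sided permutation p-values were adjusted over the 60. The receptor level and the score of a library share its depth and its scaling. Ptger4 passed on both Pearson's r and Spearman's rho for 10 lists, Ptger2 for 6, Ptger3 for 6 and Ptger1 for 1. The macrophage, fibroblast and melanocyte lists passed for Ptger2, Ptger3 and Ptger4 alike, and differences between correlations were not tested. Of the melanocyte list only Mitf and Sox10 passed the filter on low counts. What is called the melanocyte score is therefore, for every receptor gene, the mean of these genes only. Pmel, Dct, Tyr, Tyrp1 and Mlana did not enter it, so it says little about the melanocyte lineage as such.

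Ptger4 followed the macrophage score most closely, with r = 0.89 and rho = 0.86 (permutation p = 1e-05 for each, the smallest that 100000 draws can give; adjusted p = 0.0003). Without the 2 libraries farthest from the median score r was 0.89, and it was 0.87 in the 23 libraries with lung transcripts and 0.91 in the 16 without. The endothelial score had r = 0.80 and rho = 0.71, the fibroblast score 0.78 and 0.65, the neutrophil score 0.75 and 0.67 and the dendritic cell score 0.73 and 0.70, each with an adjusted permutation p of 0.0036 or less. The T cell score had r = 0.58 and rho = 0.70 (adjusted p 0.0041 and 0.0004). Several of these scores were high in the same libraries. Anti-PD-1 day 5 replicates 4 and 5, at 48.1 and 36.8 CPM of Ptger4, ranked 1 and 2 of all 39 libraries in summed fibroblast markers, 2 and 1 in endothelial markers and 3 and 1 in macrophage markers. The macrophage sum, unlike the score, may weigh Apoe most.

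Ptger2 followed the inflammatory monocyte score (r = 0.60, rho = 0.67; adjusted permutation p 0.0008 and 0.0004) and the dendritic cell score (0.64 and 0.66; adjusted p 0.00158 and 0.001). The NK cell score had r = 0.44 and rho = 0.55 (adjusted p 0.0188 and 0.00443) and the macrophage score 0.56 and 0.47 (adjusted p 0.00967 and 0.0278). The fibroblast score had r = 0.51 and rho = 0.45 (adjusted p 0.0188 and 0.0336) and the melanocyte score 0.43 and 0.43 (adjusted p 0.0377 and 0.0336). Without the 2 farthest libraries r was 0.62 for monocytes, 0.57 for dendritic cells, 0.56 for NK cells and 0.45 for macrophages. For the NK cell score r was 0.64 in libraries with lung transcripts and 0.24 in those without.

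The relations of Ptger3 rest on a median of 5 counts per library, with fewer than 10 in 26 of the 39 libraries. Ptger3 followed the melanocyte score (r = 0.75, rho = 0.77; adjusted permutation p 0.00045 and 0.0003), which rested on Mitf and the sparse Sox10 only. It also followed the adipocyte score (0.61 and 0.56; adjusted p 0.0008 and 0.00677), the fibroblast score (0.59 and 0.51) and the endothelial score (0.57 and 0.59). The macrophage score (0.46 and 0.51; adjusted p 0.0446 and 0.019) and the B and plasma cell score (0.47 and 0.45; adjusted p 0.0277 and 0.0245) passed as well. Without the 2 farthest libraries r was 0.64 for the melanocyte and 0.55 for the adipocyte score. Ptger1 passed for the melanocyte score alone and with the opposite sign (r = −0.54, rho = −0.52; adjusted p 0.00967 and 0.0136). Its relation to macrophages had r = −0.32 and rho = −0.08 and did not pass.

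**Figure D3:**
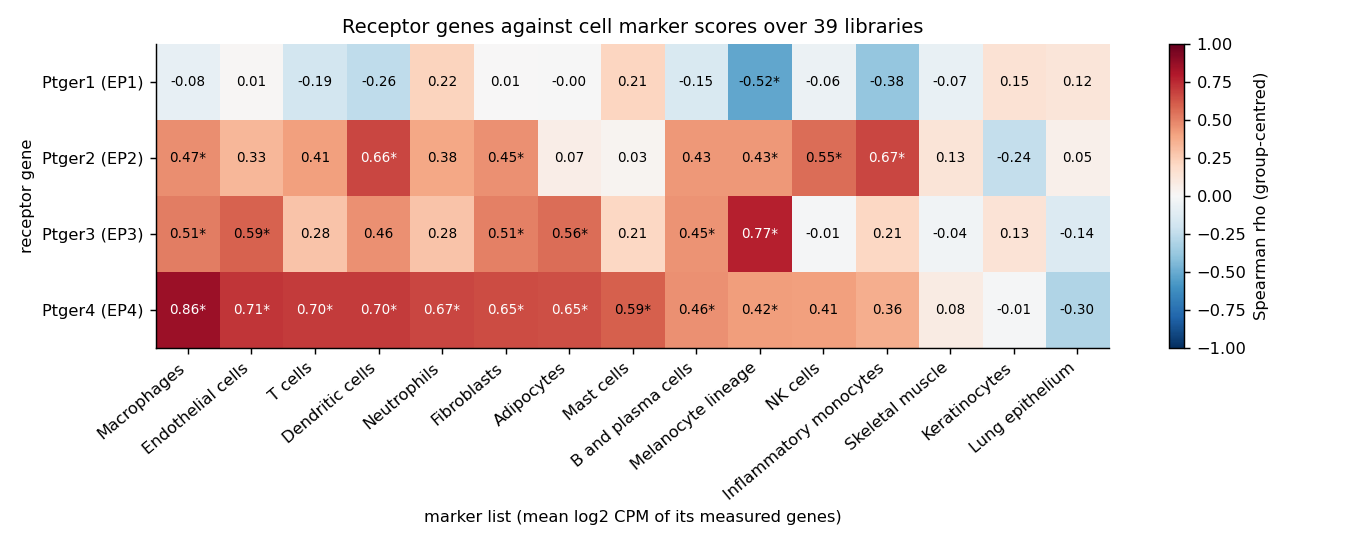
Spearman's rho between each receptor gene and each marker score over 39 libraries after subtraction of group means, with lists ordered by their rho with Ptger4 and an asterisk where adjusted p is under 0.05 for both Pearson's r and Spearman's rho. Ptger4 has its strongest relation with macrophages (0.86), Ptger2 with inflammatory monocytes (0.67), Ptger3 with the melanocyte list (0.77) and Ptger1 an inverse one with the melanocyte list (−0.52). The melanocyte list rests on Mitf and Sox10 only, and Ptger3 has a median of 5 counts per library.

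**Figure D4:**
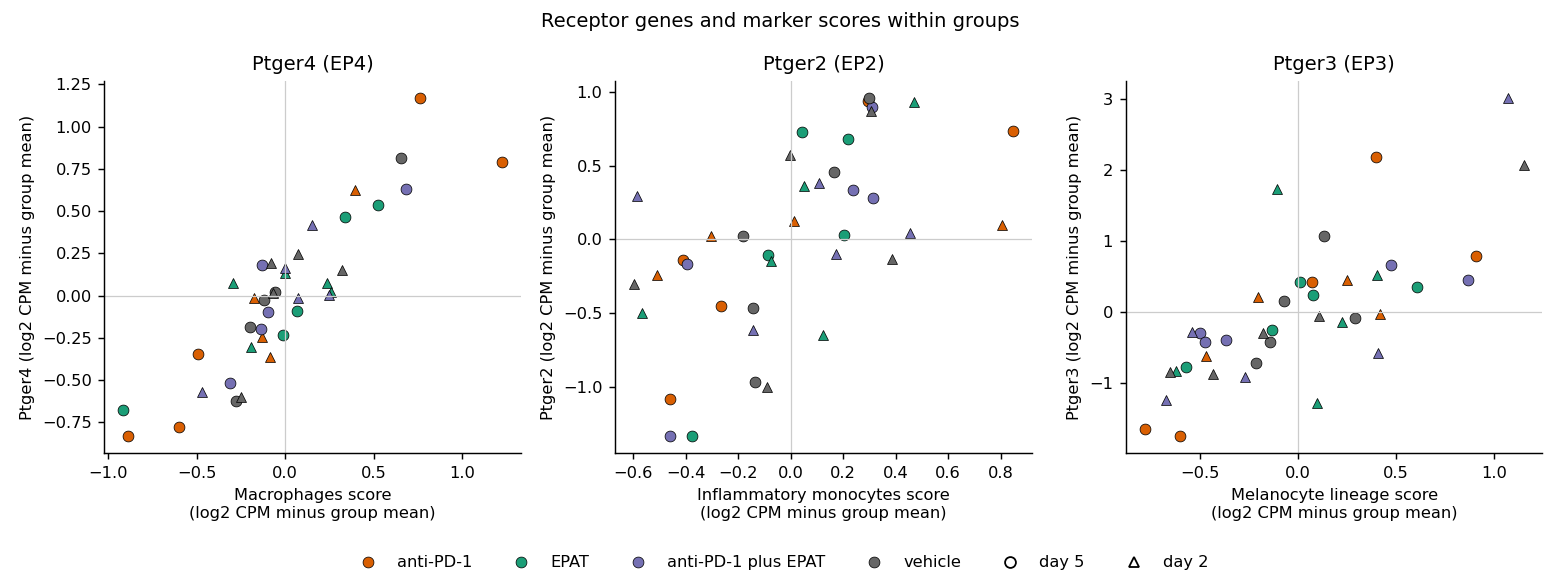
Level of a receptor gene against a marker score, each in log2 CPM minus the mean of its group, with 1 point per library, colours for treatments, circles for day 5 and triangles for day 2. The points rise together for Ptger4 and macrophages (r = 0.89), for Ptger2 and inflammatory monocytes (r = 0.60) and for Ptger3 and the melanocyte list (r = 0.75). Ptger3 has a median of 5 counts per library, and the melanocyte list rests on Mitf and Sox10 only.

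Among themselves, the 4 genes were only loosely related. Ptger3 and Ptger4 had r = 0.49 and rho = 0.49 (adjusted permutation p 0.0442 and 0.0397 over 6 pairs), and r fell to 0.34 without the 2 libraries farthest from the median. Ptger2 and Ptger4, both coupled to Gs, had r = 0.41 and rho = 0.33 (adjusted p 0.0644 and 0.145). Ptger1 and Ptger2 had r = −0.43 and rho = −0.41 (adjusted p 0.0442 and 0.0555).

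The genes whose group-centred levels were most like each receptor gene were ranked by Spearman's rho over the 39 libraries, among 11497 or 11498 named genes with a mean log2 CPM of at least 1. For Ptger4 they were Cerk (0.89), Man2b1 (0.88), Pla2g15 (0.88), Tmem176b (0.87) and Cd7 (0.86), of which Man2b1 and Pla2g15 encode lysosomal enzymes. For Ptger2 they were Oas2 (0.80), an interferon-induced gene, Pfkfb3 (0.80), a regulator of glycolysis, Plekha2 (0.76), Ifi207 (0.75) and Ccr2 (0.75), the chemokine receptor of inflammatory monocytes. For Ptger3, with a median of only 5 counts per library, they were Ccdc80 (0.74), Slco2b1 (0.72), Stap2 (0.72), Mgll (0.71), which encodes monoglyceride lipase, and Hspa12b (0.69). For Ptger1 they were Ism1 (0.75), Anxa8 (0.74), Serinc5 (0.74), Atp2b4 (0.73), a calcium pump of the plasma membrane, and Cpne5 (0.71).

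Other genes of the pathway were taken from 6 lists. In the averaged EPAT comparison 0 genes of these lists were called by edgeR, and the list medians were log2 0.03 for 3 other prostanoid receptors, −0.08 for 10 genes of prostaglandin E2 synthesis and breakdown, −0.05 for 12 G proteins, arrestins and receptor kinases, −0.04 for 18 genes of cyclic AMP synthesis, effectors and breakdown, 0.00 for 15 cyclic AMP and CREB targets and 0.17 for 8 inflammatory genes reported downstream of prostaglandin E2, beside −0.02 for all genes. Of the cyclic AMP phosphodiesterases, Pde4d was at 16.5 ± 3.86 CPM with EPAT (SD, n = 20) and 21.7 ± 5.18 CPM without it (n = 19), a log2 difference of −0.40 ± 0.11 with an unadjusted p of 0.0012 and an edgeR adjusted p of 0.699. Pde7a was at −0.13 ± 0.07 (adjusted p 0.861). The Gq family gene Gna11 was at −0.19 ± 0.08 (adjusted p 0.855) and the receptor kinase gene Grk6 at −0.11 ± 0.07 (adjusted p 0.861). The receptor gene for prostaglandin F2 alpha, Ptgfr, was at 0.03 ± 0.17 (adjusted p 0.982), and the thromboxane receptor gene Tbxa2r at −0.14 ± 0.38 (adjusted p 0.967).

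With anti-PD-1 and with time, 3 pathway genes were called, each in 1 comparison, where 2.56% of all genes were called with anti-PD-1 and 2.2% between days. Hpgd, which encodes the enzyme that inactivates prostaglandin E2, rose on day 5, at 4.95 ± 3.90 CPM against 1.48 ± 0.96 CPM on day 2 (SD, n = 20 and 19), a log2 difference of 1.73 ± 0.35 (edgeR adjusted p 0.00655). It was the only 1 of 10 synthesis and breakdown genes called, and the list's median was 0.02, beside 0.00 for all genes. Cxcl2, a neutrophil chemokine, rose with anti-PD-1, at 11.7 ± 13.8 CPM against 3.85 ± 2.60 CPM without it, a difference of 1.40 ± 0.33 (adjusted p 0.0216). It was the only 1 of 8 downstream inflammatory genes called, of which 7 were positive, with a list median of 0.34. Atf3, a stress-induced transcription factor, rose with anti-PD-1, at 21.3 ± 8.18 CPM against 12.9 ± 6.00 CPM without it, a difference of 0.71 ± 0.16 (adjusted p 0.0214). It was the only 1 of 15 cyclic AMP and CREB targets called, and that list's median was −0.02.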

How the data were processed

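The authors deposited a table of raw counts by Ensembl identifier and a log2 CPM table. Per the submitters' processing notes they used bcl2fastq, STAR, featureCounts and limma with mm10 and GRCm38. Tool versions, gene annotation and strandedness were not given in the sources used here. The deposited log2 values equal log2(count + 0.5) minus a constant per library and entered 1 alternative.

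Counts were tested with edgeR 4.0.16 in R 4.3.3, with filterByExpr (minimum count 10, minimum total 15), TMM scaling and a robust quasi-likelihood fit of 39 libraries with 1 mean per group (31 residual degrees of freedom). P-values were adjusted by Benjamini-Hochberg over 15070 genes, and a gene was called when adjusted p was under 0.05. SE was derived from the log2 fold change and the F statistic. Symbols came from GENCODE M21 (37607 identifiers matched). A score is the mean log2 CPM of a list's measured genes. Libraries of a group differed beyond counting noise (lowest chi-square per gene 10.0).

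The receptor genes, lists and tests were chosen with earlier results of these data known. Named pathway genes were those called in any comparison, otherwise up to 2 of a list by smallest p for EPAT; those most like a receptor were its first 5 by rho (mean log2 CPM of at least 1). Alternatives were DESeq2 1.42.0, RLE scaling, no filter, limma-trend (limma 3.58.1), only the libraries compared, a replicate block, muscle and lung terms, and left-out libraries. The fit was tested on simulated data. Overlaps at the Ptger1 locus are not reported here.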

Additional observations from a re-analysis of the deposited data

Results flagged for a closer look

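In 32 combinations of gene and group, 3 libraries stood apart from the others of their group by Dixon's criterion, which chance exceeds in about 1 group in 20. Ptger3 was at 6.14 CPM in anti-PD-1 plus EPAT day 2 replicate 2, against 0.166 to 0.475 CPM in the other 4 libraries of the group. That library ranked 39 of 39 in summed T cell markers (15.2 CPM) and dendritic cell markers (66.1 CPM), 38 of 39 in NK cell markers (194 CPM), 1 of 39 in inflammatory monocyte markers (2050 CPM) and 3 of 39 in fibroblast markers (20475 CPM). Ranks by the NK cell sum rest largely on Klra4, and those by the inflammatory monocyte sum on Fn1 and Vcan. Ptger3 was at 3.01 CPM in vehicle day 2 replicate 1, against 0.25 to 0.563 CPM in the others. That library ranked 1 of 39 in adipocyte markers (1536 CPM) and in B and plasma cell markers (263 CPM) and 3 of 39 in keratinocyte markers (25.1 CPM).

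Ptger4 was lowest in EPAT day 2 replicate 3, at 11.9 CPM against 15.0 to 16.2 CPM in the others of the group. That library ranked 34 of 39 in macrophage markers (2400 CPM), 35 of 39 in neutrophil markers (103 CPM) and 35 of 39 in inflammatory monocyte markers (1025 CPM). The part of these tissues in these values was not tested.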

How the results depend on the processing

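Of 1170 refits of 42 fold changes, 1098 kept their direction and side of the threshold, 27 lost a call and 45 changed sign. Lost calls without left-out libraries concerned Ptger2 with anti-PD-1 averaged, at 0.87 without a filter, 0.86 with the replicate block (adjusted p 0.0548) and 0.89 without vehicle day 2 replicates 1 and 2, and Ptger4 between days, at 0.62 with the muscle score, 0.61 with the lung term and 0.59 with limma-trend (adjusted p 0.051). Outside the fits with a single library left out, given below, signs changed only for values near 0 or for Ptger3. Ptger2 with EPAT averaged was at −0.018 with the muscle score. Ptger1 with anti-PD-1 on day 2 was at −0.025 with the replicate block and −0.034 without vehicle day 2 replicates 1 and 2. In the latter fit Ptger4 in the same comparison was at −0.0040 and Ptger3 with EPAT averaged at 0.093. Ptger3 between days was at 0.023 with limma-trend. Without the 3 libraries whose titles carry a number of the other day, chosen after the data were seen, Ptger2 with EPAT averaged was at −0.0092 and Ptger1 under the combination against EPAT on day 5 at 0.00024. The cause was not tested.

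With single libraries left out, Ptger2 with anti-PD-1 ranged from 0.80 to 0.96 and was called in 18 of 39 fits, and Ptger4 between days was called in 39 of 39. Ranges that crossed 0 were −0.072 to 0.093 for Ptger2 with EPAT averaged, −0.43 to 0.084 for Ptger2 with EPAT on day 5, −0.13 to 0.0087 for Ptger1 with anti-PD-1 averaged, −0.24 to 0.11 for Ptger1 under the combination against EPAT on day 5, −0.22 to 0.29 for Ptger1 with anti-PD-1 on day 2, −0.30 to 0.16 and −0.19 to 0.16 for Ptger1 under the combination against anti-PD-1 and against vehicle on day 2, −0.17 to 0.21 for Ptger4 with anti-PD-1 on day 2, and −0.72 to 0.12, −0.16 to 0.69 and −0.55 to 0.24 for Ptger3 with EPAT, with anti-PD-1 and between days. The labels do not say that a replicate number marks a shared animal, litter or day. Over 133 same-numbered pairs the correlation of deviations was −0.56 to 0.57 (median 0.01), 44 pairs exceeded 0.1, and 13 of 39 libraries correlated best with their own number.

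Counts of called genes depended on the tool and on single libraries. For anti-PD-1 averaged, 386 genes were called in edgeR, 1085 with DESeq2 and 210 with limma-trend, and 147 to 1300 with 1 library left out. Between days they were 332, 655, 138 and 137 to 574. For the combination against vehicle they were 4, 78, 6 and 0 to 205 on day 5 and 0, 81, 1 and 0 to 20 on day 2 (99 in a fit of only those libraries). Of 23 marker relations that passed, 0 changed sign without centring or on the deposited log2 values, but some were weaker without centring. The rho of Ptger4 with the adipocyte score was 0.65 with centring and 0.13 without it. That of Ptger2 with the fibroblast score was 0.45 with centring and 0.24 without it. Depth limits Ptger3 most, with a median of 5 counts per library.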
